A study of Mus musculus with 9 samples.

Results

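The genes described here are the receptors for neuromodulators, the orphan receptors and the adhesion receptors of the G protein-coupled receptor (GPCR) superfamily, measured in mouse hippocampus. Members were taken by symbol. A gene entered if its symbol began with Gpr, Adgr, Htr, Chrm, Adra, Adrb, Drd, Adora, S1pr, Lpar, Sstr, Opr, Crhr, P2ry or Fzd followed by its subtype number or letter, and if its mean count over the SAE and CTL libraries was at least 10. Gpr34, P2ry12, P2ry13 and Adgrl4 were left out by name. Opioid receptor symbols carry a letter before the number and were read with that letter, which added 1 member, Oprd1. The rule gave 74 members out of 179 such symbols and 38911 genes in all. Of the 74, 2 are not receptors: Fzd10os is a noncoding RNA gene named after Fzd10, and Gpr137b-ps is a transcribed pseudogene whose reads may be shared with its parent gene. Of the purinergic P2Y receptors only P2ry13, left out by name, reached the mean count. P2ry12, also left out by name, had 0 counts in all 9 libraries.

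The study used adult BALB/c mice kept specific pathogen free, with 3 hippocampal libraries in each of 3 groups. SAE libraries came, per the labels, from mice operated on by cecal ligation and puncture (CLP) alone, which lets gut bacteria into the abdomen and so models sepsis. CCLF libraries came from mice that had CLP and were given flavonoids of Cuscuta chinensis at 200 mg/kg, and CTL libraries from sham-operated mice. Mice of all groups therefore had surgery. The sources used here give neither sex, exact age nor the time of sampling.

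GPCRs are membrane proteins that pass a signal from outside the cell to G proteins inside it. Receptors that couple to Gs raise cyclic AMP, those that couple to Gi lower it, and those that couple to Gq release calcium through phospholipase C. In the hippocampus noradrenaline, serotonin, acetylcholine, dopamine, adenosine and neuropeptides set the excitability of pyramidal cells and interneurons through such receptors. Adhesion GPCRs carry long extracellular domains that bind partners on neighbouring cells, frizzled receptors bind Wnt proteins, and orphan receptors have no agreed natural ligand.

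Library totals ran from 4626519 to 4895474 counts. The group labels were checked against Lcn2, an acute-phase gene that inflammation raises. It had 13, 14 and 6 counts in the SAE libraries, against 13816, 14822 and 13246 in the CTL libraries (log2 fold change −10.3 ± 0.11, approximate standard error (SE), adjusted p = 1.5e-15). The CCLF libraries, also from CLP mice by the labels, had 6791, 9635 and 4524 counts. This order runs against the labels, since the sham libraries held the highest counts. Every direction given here is that of the libraries as labelled. The files do not settle whether the SAE and CTL labels were exchanged. If they were, every higher and lower between SAE and CTL would turn round, and the comparison of CCLF with SAE would set extract-treated CLP mice against sham mice. The CCLF libraries also stood apart in their spread. If counting error were the only source of spread, the ratio of the variance among 3 libraries to the counting variance would have a median of 0.693. Over the 74 members that median was 0.425 in the CCLF libraries, 1.54 in the SAE libraries and 1.32 in the CTL libraries. The ratio was below 0.05 in 24.3% of members in CCLF, 1.35% in SAE and 2.7% in CTL, where counting error alone gives 4.88%. The pattern was not particular to the members. Over 7105 genes with a mean count of at least 10 in each group, the medians were 0.421 in CCLF, 1.28 in SAE and 1.25 in CTL. In CCLF libraries 19.3% of those genes were below 0.05. Htr1a, for example, had 688, 696 and 693 counts in the CCLF libraries. The 3 CCLF libraries were not copies of each other, as Fzd2 had 172, 73 and 119 counts in them. Comparisons with CCLF are therefore given last and briefly.

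The share of receptors that could be measured differed with the number of RefSeq transcripts of the gene, and the reason was not tested. Of 64 symbols with 1 transcript in the table, 50 (78.1%) reached the mean count of 10, and of 115 with several transcripts 24 (20.9%) did. Over all genes the shares were 22.7% and 18.2%. All 9 libraries had 0 counts for 33 of the symbols with several transcripts and for 1 of those with a single one. Receptors known to be plentiful in hippocampal pyramidal cells or interneurons are among those nearly missing. Chrm1, the main muscarinic receptor gene of pyramidal cells, had a mean of 1.83 counts with 2 transcripts, and Oprm1, the µ-opioid receptor gene of interneurons, 1.5 counts with 15. The members are thus not a census of hippocampal GPCRs. In the 24 members with several transcripts nearly all counts usually sat on 1 of them, as in Crhr1, where 1 of 8 transcripts held 100% of the counts. Nearest above the mean count of 10 were Adora3 (mean 10), Gpr6 (12.7) and Gpr18 (13.8), and nearest below were Chrm4 (9.5), Fzd10 (8.5) and S1pr4 (8.17).

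**Figure D1:**
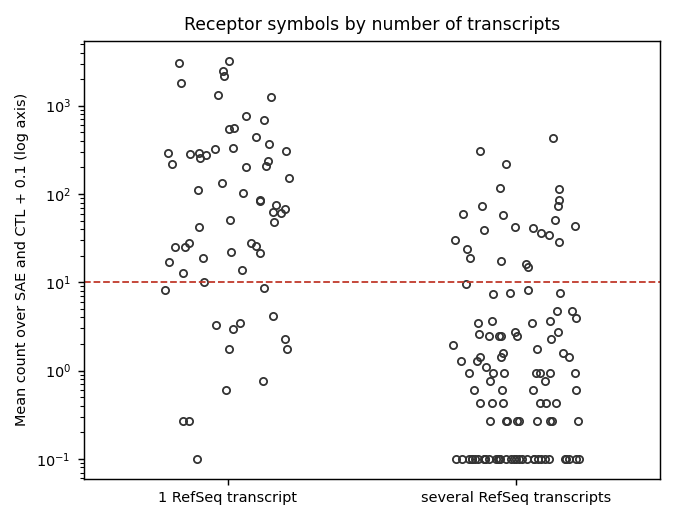
Mean count over the 6 SAE and CTL libraries (plus 0.1, log axis) of the 179 receptor symbols, split by whether the gene has 1 or several RefSeq transcripts in the table. Each ring is a symbol and the dashed line marks the mean count of 10: 50 of 64 symbols with 1 transcript and 24 of 115 with several lie on or above it.

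The first comparison set the libraries labelled SAE against those labelled CTL, by the labels CLP against sham hippocampus. Of the 74 members, all tested, 24 were higher in SAE libraries and 11 lower at an adjusted p under 0.05. The 35 called members are 47.3% of the 74, and 47.6% of the 8213 tested genes were called, so the members changed as often as genes in general. Called higher were 23.7% of all tested genes and called lower 23.9%. The counts by receptor class and by gene list further on are to be read beside these shares. The median log2 fold change was 0.16 over the members and 0.00 over all tested genes, and the median size of the change regardless of sign was 0.42 and 0.37. Of the members 8 were called at least 2-fold higher (7.59% of all tested genes were) and 3 at least 2-fold lower (8.92%). The libraries of both groups did not overlap in 39 members, 28 higher and 11 lower, and 55.6% of all tested genes did not overlap. Split by transcripts, the 24 members with several transcripts gave 9 higher and 0 lower, and the 50 with 1 transcript gave 15 higher and 11 lower. Among all tested genes with several transcripts 21.9% were higher and 16.5% lower, and among those with 1 transcript 25% and 29.3%.

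**Figure D2:**
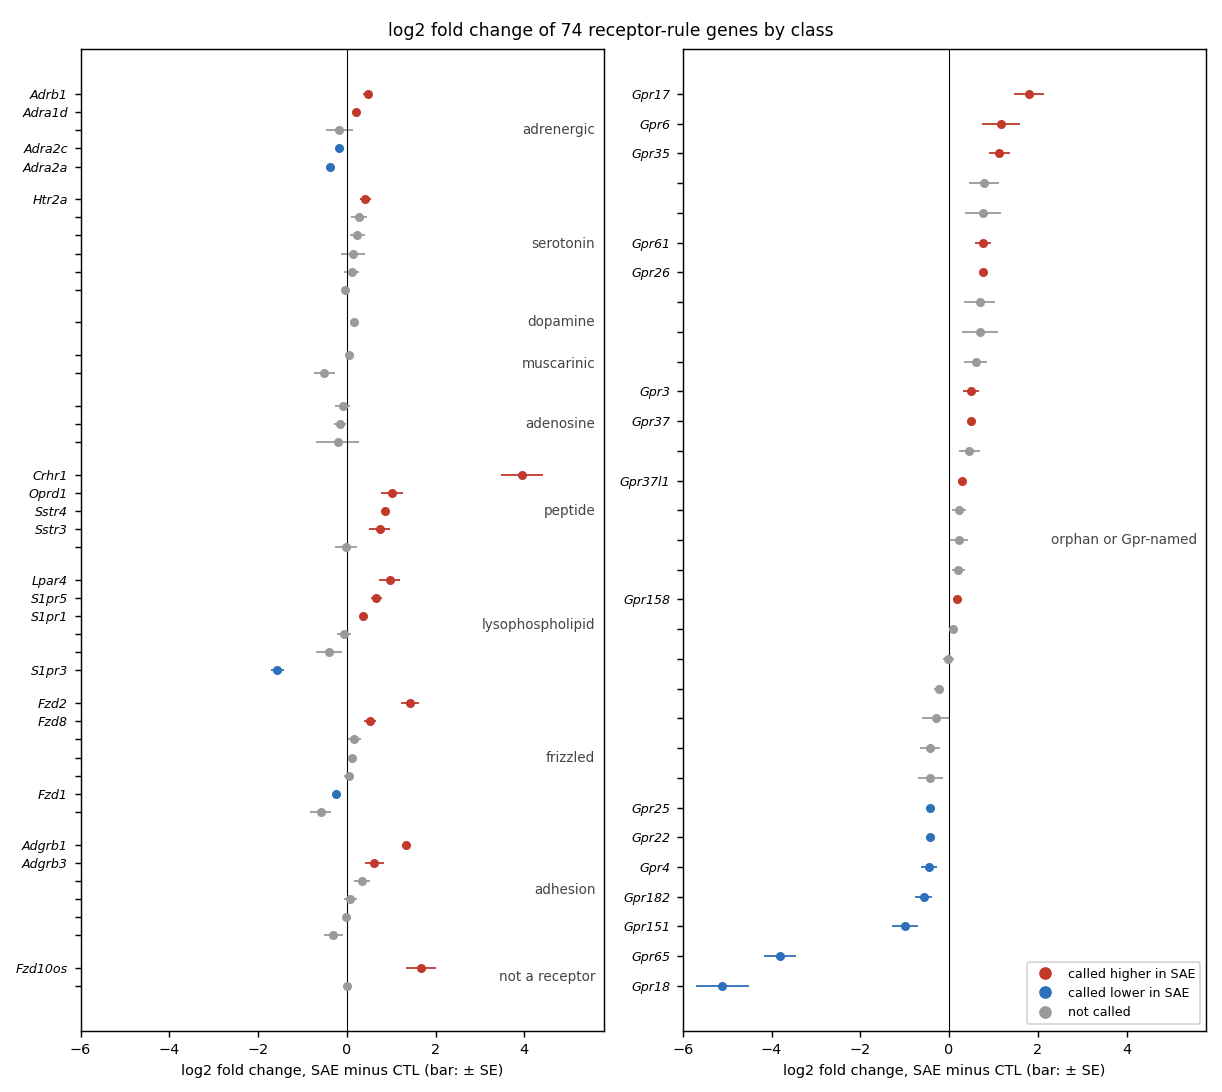
log2 fold change, SAE minus CTL, of each of the 74 members (points, bars ± SE), ordered by receptor class, with the called members named. Red marks the 24 members called higher in SAE, blue the 11 called lower and grey those not called. Crhr1 lies farthest to the right at 3.95 and Gpr18 farthest to the left at −5.11.

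**Figure D3:**
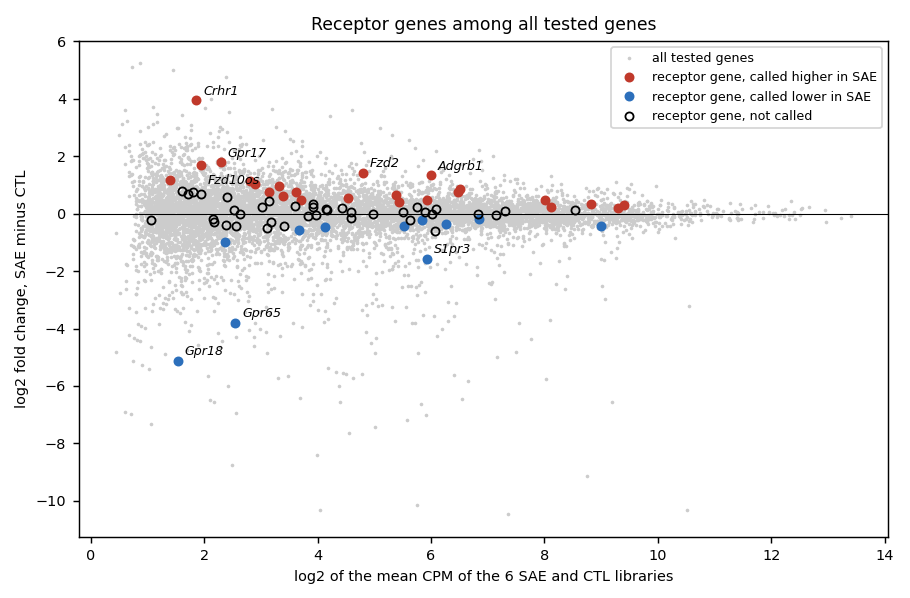
log2 fold change, SAE minus CTL, against the log2 of the mean CPM (counts scaled to a common library size) over SAE and CTL libraries, for all 8213 tested genes (grey) and the 74 members (rings and filled points). Most members lie within the cloud of all genes, and Crhr1, Gpr65 and Gpr18 lie at its edges.

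The peptide receptors were higher in SAE libraries in 4 of 5 members, with 0 lower. Over all tested genes 23.7% were higher and 23.9% lower. Crhr1 encodes the Gs-coupled receptor through which corticotropin-releasing hormone acts in the stress response. It had 31, 33 and 35 counts in SAE libraries, against 2, 0 and 4 in CTL libraries. The groups lay far apart, at 6.84 ± 0.364 CPM in SAE and 0.42 ± 0.413 CPM in CTL (SD, n = 3 each), with a log2 fold change of 3.95 ± 0.47 (adjusted p = 2.4e-07). Oprd1 encodes the δ-opioid receptor, which couples to Gi. It had 52, 46 and 46 counts in SAE libraries, against 28, 26 and 16 in CTL libraries (log2 fold change 1.02 ± 0.24, adjusted p = 0.00128). Somatostatin receptors also couple to Gi and damp neuronal firing. Sstr4, the subtype known from CA1 pyramidal cells, had 621, 550 and 540 counts in SAE libraries, against 292, 310 and 334 in CTL libraries (0.86 ± 0.08, adjusted p = 4.64e-09). Every SAE library was above every CTL library in these 3 genes, as in 27.9% of all tested genes. Sstr3, the subtype of neuronal cilia, had 42, 71 and 46 counts in SAE libraries and 33, 25 and 36 in CTL libraries (0.74 ± 0.24, adjusted p = 0.0137). Its call was lost without SAE replicate 2 (adjusted p = 0.147), without CTL replicate 2 (0.0737) and with DESeq2's Wald test (0.0509). Sstr2 had a log2 fold change of −0.01 ± 0.25 and was not called. Among the genes of peptide ligands and binding proteins 4 of 18 could be tested, with 2 higher and 0 lower. Crhbp, which encodes a protein that binds corticotropin-releasing hormone, rose by 0.46 ± 0.09 (adjusted p = 0.000145). Crh itself had a log2 fold change of 0.42 and was not called (adjusted p = 0.336). Apln, the gene of the peptide apelin, whose receptor is not among the members, rose by 1.60 ± 0.12.

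**Figure D4:**
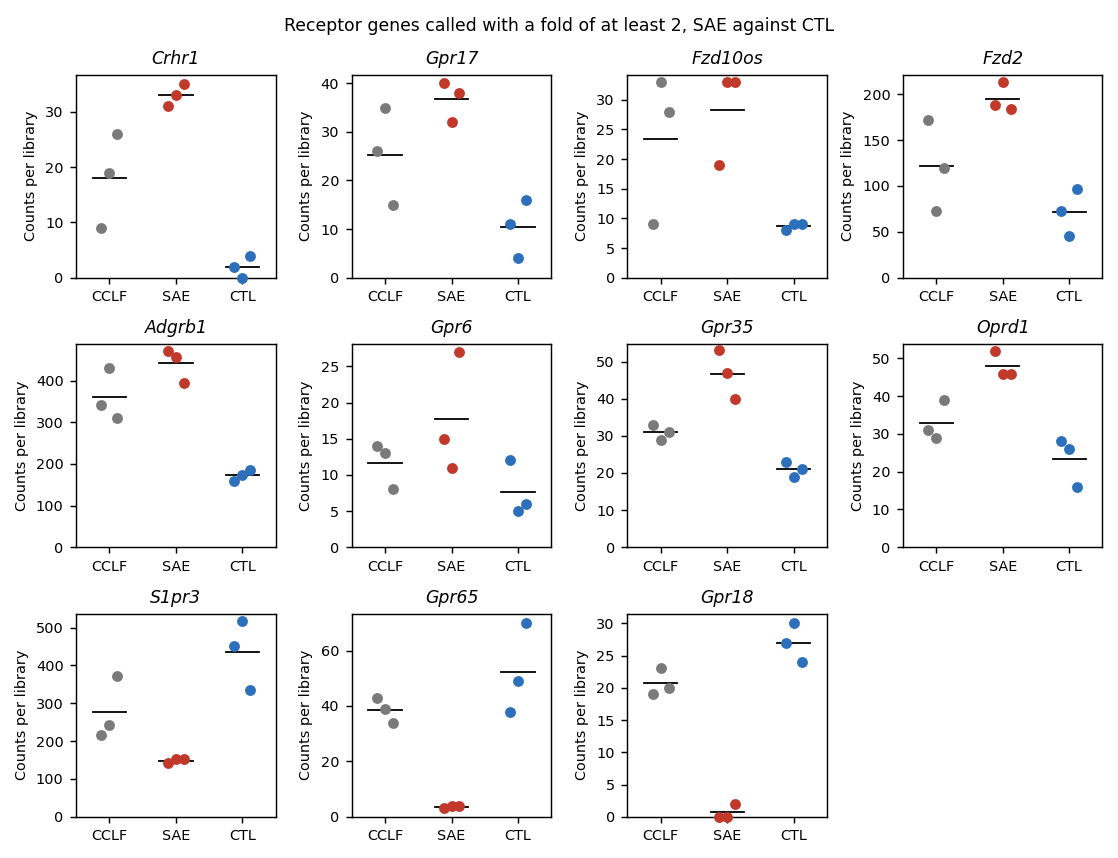
Counts per library of the 11 members called at least 2-fold different between SAE and CTL, 1 panel per gene with CCLF, SAE and CTL libraries from left to right (n = 3 each). Points are libraries and bars are means. SAE libraries lie above CTL libraries in the first 8 panels, except for 1 overlap in Gpr6, and below them in S1pr3, Gpr65 and Gpr18.

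Of 5 adrenergic receptors 2 were higher and 2 lower in SAE libraries, and all the changes were under 2-fold. Adrb1 encodes the β1 receptor, which couples to Gs. It had 328, 316 and 384 counts in SAE libraries, against 263, 216 and 255 in CTL libraries, with no overlap (0.47 ± 0.10, adjusted p = 0.000517). Adra2a encodes an α2 receptor, a Gi-coupled autoreceptor of noradrenergic terminals that neurons also carry. It had 302, 328 and 338 counts in SAE libraries, against 424, 380 and 436 in CTL libraries, and fell by 0.37 ± 0.09 (adjusted p = 0.000959). The 2 other calls were weak. Adra1d, a Gq-coupled receptor gene, had 1419, 1467 and 1445 counts in SAE libraries and 1225, 1082 and 1376 in CTL libraries (0.22 ± 0.07, adjusted p = 0.0171). It was not called without SAE replicate 2 (adjusted p = 0.0568), SAE replicate 3 (0.0539) or CTL replicate 2 (0.103, with a log2 fold change of 0.12). Adra2c had a log2 fold change of −0.17 ± 0.07 (adjusted p = 0.0463) and lost its call in 10 of 15 alternatives, where the adjusted p reached 0.288 without SAE replicate 2. The other libraries whose omission ended it were SAE replicate 1 (0.0583), CTL replicate 1 (0.0845) and CTL replicate 2 (0.148).

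Serotonin, dopamine, muscarinic and adenosine receptors gave 1 call among 12 members. Htr2a, the Gq-coupled 5-HT2A receptor gene, had 230, 245 and 238 counts in SAE libraries, against 171, 148 and 209 in CTL libraries (0.42 ± 0.12, adjusted p = 0.00513). The groups did not overlap, and without CTL replicate 2 the adjusted p was 0.0513. Htr1a, the Gi-coupled 5-HT1A receptor gene that pyramidal cells express, had 712, 628 and 684 counts in SAE libraries and 661, 696 and 715 in CTL libraries. Its log2 fold change was −0.05 ± 0.06, and the groups overlapped. Htr1f, Htr5a, Htr5b and Htr6 had log2 fold changes of 0.11 to 0.27 and were not called, although Htr5a did not overlap between groups. Drd5, a Gs-coupled dopamine receptor gene, had 321, 353 and 370 counts in SAE libraries and 316, 311 and 294 in CTL libraries (0.16 ± 0.09, adjusted p = 0.136). Chrm3 had a log2 fold change of 0.06 ± 0.11 and Chrm5 of −0.51 ± 0.24, and both were not called. Adora1, the Gi-coupled adenosine receptor gene that curbs glutamate release, had 116, 109 and 105 counts in SAE libraries, against 113, 109 and 140 in CTL libraries (−0.15 ± 0.14). Adora2b and Adora3 were not called either. Adora3, at the mean count of 10, was too thinly counted for small changes to be seen.

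Enzymes that make or remove the ligands of these receptors were counted from a fixed list of 27 genes, 10 of them tested, with 2 higher and 2 lower. Nt5e encodes ecto-5′-nucleotidase, which forms extracellular adenosine from AMP. It had 77, 66 and 97 counts in SAE libraries, against 290, 360 and 248 in CTL libraries, and fell by 1.92 ± 0.15 (adjusted p = 2.39e-09). No CTL library came near the SAE libraries for this gene. Entpd2, an ectonucleotidase gene that acts on extracellular ATP, rose by 0.55.

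Lysophospholipid receptors bind sphingosine-1-phosphate (S1pr genes) or lysophosphatidic acid (Lpar genes), and 3 of 6 were higher and 1 lower in SAE libraries. S1pr3, a receptor gene of vessels and astrocytes, had 141, 153 and 152 counts in SAE libraries, against 451, 518 and 334 in CTL libraries. It fell by 1.56 ± 0.15 (adjusted p = 2.04e-06), to 30.8 ± 1.48 CPM in SAE, against 90.9 ± 19.5 CPM in CTL (SD, n = 3 each). Of this receptor family S1pr1 and S1pr5, the other members, were higher, while S1pr4, below the mean count of 10 and not a member, had 5, 3 and 3 counts in SAE libraries and 15, 13 and 10 in CTL libraries. S1pr1, the Gi-coupled subtype of endothelium and astrocytes, had 2471, 2471 and 2387 counts in SAE libraries, against 1670, 2170 and 1840 in CTL libraries (0.35 ± 0.07, adjusted p = 0.000594). S1pr5, the subtype of oligodendrocytes, had 254, 241 and 250 counts in SAE libraries, against 155, 128 and 181 in CTL libraries (0.67 ± 0.12, adjusted p = 5.76e-05). S1pr3, S1pr1 and S1pr5 did not overlap between groups. Lpar4 had 63, 56 and 73 counts in SAE libraries, against 19, 33 and 45 in CTL libraries (0.97 ± 0.23, adjusted p = 0.00131). Lpar2 had a log2 fold change of −0.40 ± 0.29 and Lpar6 of −0.05 ± 0.16, and neither was called. Of the enzymes that clear these lipids, Plpp3, a phospholipid phosphatase gene, rose by 0.34 ± 0.04, and Sgpp1, a sphingosine-1-phosphate phosphatase gene, fell by 0.45 ± 0.06.

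Among the 7 frizzled receptors, which bind Wnt proteins through a cysteine-rich domain, 2 were higher and 1 lower. Fzd2 had 188, 213 and 184 counts in SAE libraries, against 73, 45 and 97 in CTL libraries (1.43 ± 0.20, adjusted p = 3.64e-05). Fzd8 had 136, 135 and 127 counts in SAE libraries, against 91, 94 and 87 in CTL libraries (0.53 ± 0.14, adjusted p = 0.00222). Both were higher in every SAE library. Fzd4, which endothelial cells use to receive the Wnt-like ligand norrin, had 330, 256 and 186 counts in SAE libraries, against 380, 434 and 338 in CTL libraries. The groups did not overlap, but the SAE libraries spread widely and the gene was not called (−0.59 ± 0.23, adjusted p = 0.0884). Without SAE replicate 1 the adjusted p was 0.000803, without SAE replicate 3 it was 0.0122, and with no filter on low counts 1.05e-05. Fzd3, a receptor gene of axon guidance, had 1701, 1884 and 2011 counts in SAE libraries and 1734, 1677 and 1702 in CTL libraries (0.11 ± 0.05, adjusted p = 0.0903). Fzd1 had a log2 fold change of −0.23 ± 0.09 (adjusted p = 0.0402), a call that was lost when any one of the 6 libraries was left out (adjusted p of 0.0543 to 0.129) and with DESeq2's Wald test (0.0998), no filter (0.0795) or genes with 1 transcript (0.0653). Fzd7 and Fzd9 were not called. The antisense-named noncoding gene Fzd10os had 19, 33 and 33 counts in SAE libraries, against 8, 9 and 9 in CTL libraries (1.68 ± 0.34, adjusted p = 0.000256). The sources used here do not say whether counting used the strand, so its reads and those of Fzd10 may not be told apart.

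The Wnt list around the frizzled receptors held 41 genes, 21 of them tested, with 3 higher and 4 lower. Ndp, the gene of norrin, had 149, 138 and 161 counts in SAE libraries, against 66, 69 and 62 in CTL libraries (1.17 ± 0.14, adjusted p = 2.87e-07). Frzb, which encodes a secreted Wnt-binding antagonist, fell by 0.51 ± 0.07. Wnt3, a ligand gene, had 22, 25 and 30 counts in SAE libraries, against 48, 61 and 61 in CTL libraries, and fell by 1.15 ± 0.22 (adjusted p = 0.000123).

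Of 6 adhesion receptors 2 were higher and 0 lower in SAE libraries. Adgrb1 encodes BAI1, which binds phosphatidylserine on dying cells and sits at synapses. It had 472, 457 and 395 counts in SAE libraries, against 159, 173 and 185 in CTL libraries, a gap wider than either group's spread (1.34 ± 0.10, adjusted p = 5.26e-11). Of its 18 transcripts 2 had counts, and 1 held 99.5% of them. Adgrb3 encodes BAI3, a receptor for secreted C1q-like proteins. It had 74, 55 and 56 counts in SAE libraries, against 37, 32 and 50 in CTL libraries (0.62 ± 0.21, adjusted p = 0.0174). Its call was lost without SAE replicate 1 (adjusted p = 0.113), CTL replicate 1 (0.0532) or CTL replicate 2 (0.1), and with DESeq2's Wald test (0.0679). Adgrl1, the gene of latrophilin 1, had a log2 fold change of 0.34 ± 0.18 and was not called. Adgra3 had 584, 539 and 519 counts in SAE libraries and 575, 545 and 515 in CTL libraries, so that the groups overlapped fully (−0.01 ± 0.08). Adgra1 and Adgrd1 were not called.

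Partners of adhesion receptors were counted from a list of 31 genes, 13 of them tested, with 3 higher and 3 lower. C1ql1, the gene of a C1q-like protein that binds BAI3, had 146, 148 and 159 counts in SAE libraries, against 72, 38 and 47 in CTL libraries (1.51 ± 0.18, adjusted p = 5.67e-07). C1ql1 is also 1 of the oligodendrocyte precursor markers counted further on. Rtn4r, the gene of the Nogo receptor, which binds BAI1, rose by 0.38 ± 0.05. Tgm2, the transglutaminase gene whose product binds another adhesion receptor, had 307, 346 and 228 counts in SAE libraries, against 1126, 1293 and 1186 in CTL libraries, and fell by 2.05 ± 0.15.

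The 31 receptors with Gpr names gave 9 higher and 7 lower. The most lowered were receptors of white blood cells. Gpr65 encodes a proton-sensing receptor of leukocytes and microglia that couples to Gs. It had 3, 4 and 4 counts in SAE libraries, against 38, 49 and 70 in CTL libraries, and fell by 3.80 ± 0.36 (adjusted p = 4.64e-09). Gpr18 encodes a receptor of lymphocytes and myeloid cells. It had 0, 0 and 2 counts in SAE libraries, against 27, 30 and 24 in CTL libraries. The CTL libraries held 39.9 times as many Gpr18 counts per total, with a 95% counting interval of 10.7 to 335 that covers counting error only (adjusted p = 1.53e-07). Neither gene's groups came near each other. Gpr183, the receptor gene for the oxysterol that guides B cells, had 24, 15 and 25 counts in SAE libraries and 10, 5 and 22 in CTL libraries, with overlap (0.77 ± 0.40, adjusted p = 0.12). Without CTL replicate 3 it was called higher (1.46, adjusted p = 0.00778). Gpr35, a receptor gene of gut and immune cells, was higher, with 53, 47 and 40 counts in SAE libraries, against 23, 19 and 21 in CTL libraries (1.13 ± 0.24, adjusted p = 0.000413). Among these 4 genes, picked by hand and not from a list, 2 fell, 1 rose and 1 was not called. Other choices could give other counts.

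Markers of blood leukocytes moved with Gpr65 and Gpr18. Of 17 myeloid and neutrophil markers 3 could be tested and all 3 were lower, among them S100a8, with 8, 2 and 2 counts in SAE libraries, against 157, 176 and 177 in CTL libraries. Their summed level was 29.5 to 33.5 CPM in SAE libraries and 80 to 106 CPM in CTL libraries. Ptprc, Itgal, Csf3r, Cxcr2, Ccr2, Ly6g and S100a9 had 0 counts in all 9 libraries. Absence of cells cannot be read from a count of 0 here. Camk2a, a marker of hippocampal excitatory neurons, was also at 0 in all 9 libraries. Of lymphocyte markers 8 of 10 were in the table, none could be tested, and Cd3e, Cd4 and Cd8a were at 0. Of 16 microglial markers 8 were tested, with 5 higher and 1 lower, and their summed level was 985 to 1080 CPM in SAE libraries and 836 to 1180 CPM in CTL libraries. The part of leukocyte number in the change of these receptors was not tested, and in bulk tissue fewer cells of a type and less RNA per cell cannot be told apart.

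The 3 members at least 2-fold lower in SAE libraries are shown with the bases before their start sites, since all 3 fell. The stretches are the 250 bases upstream of the RefSeq start in assembly GRCm38.p6, a C57BL/6J genome, at chr14:121915889-121916138 on the minus strand for Gpr18, chr12:98268385-98268634 on the plus strand for Gpr65 and chr13:51408368-51408617 on the plus strand for S1pr3. Capitals mark a match to the interferon-stimulated response element.
Gpr18: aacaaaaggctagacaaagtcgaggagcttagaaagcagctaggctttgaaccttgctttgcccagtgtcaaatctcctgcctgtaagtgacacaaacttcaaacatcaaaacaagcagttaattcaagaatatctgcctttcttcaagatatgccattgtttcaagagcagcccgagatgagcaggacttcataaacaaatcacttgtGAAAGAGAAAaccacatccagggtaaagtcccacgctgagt
Gpr65: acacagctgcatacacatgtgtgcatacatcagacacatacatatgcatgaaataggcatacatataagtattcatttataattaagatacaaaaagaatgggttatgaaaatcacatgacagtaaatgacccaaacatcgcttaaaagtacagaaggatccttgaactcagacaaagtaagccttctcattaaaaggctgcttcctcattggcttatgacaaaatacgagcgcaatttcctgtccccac
S1pr3: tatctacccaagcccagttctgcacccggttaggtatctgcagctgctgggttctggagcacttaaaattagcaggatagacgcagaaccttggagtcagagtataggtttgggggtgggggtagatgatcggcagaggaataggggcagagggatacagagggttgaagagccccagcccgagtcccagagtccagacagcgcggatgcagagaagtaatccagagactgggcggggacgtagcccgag

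Both strands were searched for 5 motifs, and their matches may overlap. The interferon-stimulated response element (GAAA, any 2 bases, GAAA) was in the Gpr18 stretch, with its first base 41 bases before the start, and in 2.98% of all 32851 promoter stretches of this length. Matches to NF-kB (by its usual consensus), AP-1 (TGANTCA), the cyclic AMP response element (TGACGTCA) and PU.1 (GAGGAAGT) were in 7.25%, 6.75%, 1.55% and 2.44% of all stretches and in none of these 3. Of the 74 members 54 had a stretch in the table. Motif matches were in 5 of them for NF-kB (Adgrb3, Adra2c, Gpr22, Lpar2, Oprd1), 2 for the interferon element (Chrm5, Gpr18) and 4 for AP-1 (Adora1, Adora3, Gpr35, Lpar2). The cyclic AMP response element was in 2 (Gpr6, Sstr2) and the PU.1 motif in 1 (Adora3). These are matches of letters and not shown binding sites.

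Of 4 members known from the oligodendrocyte lineage, picked by hand and not from a list, Gpr17, Gpr37 and S1pr5 were higher in SAE libraries and Gpr62 was not called. Gpr17, which marks precursors on their way to myelination, had 40, 32 and 38 counts in SAE libraries, against 11, 4 and 16 in CTL libraries (1.80 ± 0.33, adjusted p = 9.37e-05). Gpr37, a receptor gene of mature oligodendrocytes that restrains their differentiation in mice, had 1488, 1384 and 1485 counts in SAE libraries, against 990, 1071 and 1017 in CTL libraries (0.49 ± 0.05, adjusted p = 3.46e-08). S1pr5, described above, belongs to the same lineage. Gpr62, also an oligodendrocyte gene, had 210, 197 and 249 counts in SAE libraries and 230, 273 and 260 in CTL libraries and was not called (−0.23 ± 0.11, adjusted p = 0.0708). Without SAE replicate 3 it was called lower (−0.32, adjusted p = 0.0265). Markers of these cells moved with the 3 genes that rose. Of 8 tested oligodendrocyte markers 7 were higher and 0 lower, with a summed level of 1480 to 1700 CPM in SAE libraries and 993 to 1070 CPM in CTL libraries. Of 10 precursor markers 5 were tested and all 5 were higher, C1ql1 among them. Pdgfra, not tested, had 1, 12 and 4 counts in SAE libraries and 11, 6 and 5 in CTL libraries. The summed level of the 10 was 785 to 821 CPM in SAE libraries and 359 to 475 CPM in CTL libraries. The part of cell number in these receptor changes was not tested. Gpr37l1, the astrocyte relative of Gpr37, had 3603, 3410 and 3729 counts in SAE libraries, against 2673, 2622 and 3391 in CTL libraries (0.29 ± 0.10, adjusted p = 0.0461). That call was lost without SAE replicate 1 (adjusted p = 0.124), SAE replicate 2 (0.0588), SAE replicate 3 (0.194) or CTL replicate 1 (0.111). Of 10 tested astrocyte markers 3 were higher and 6 lower.

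Gpr182 and Gpr4, known from endothelium and picked by hand, were called lower, and both calls depended on single libraries. Other members described above for endothelium or vessels differed in direction. S1pr1 was higher (0.35 ± 0.07), a call that held in every alternative, S1pr3 was lower (−1.56 ± 0.15) and Fzd4 was not called. Gpr182, an atypical chemokine receptor gene of endothelium, had 54, 56 and 39 counts in SAE libraries, against 84, 67 and 68 in CTL libraries (−0.57 ± 0.19, adjusted p = 0.0175). The call was lost without SAE replicate 3 (adjusted p = 0.108) or CTL replicate 1 (0.117), and with DESeq2's Wald test (0.06). Gpr4, a proton-sensing receptor gene of endothelium, had 67, 85 and 62 counts in SAE libraries and 74, 106 and 110 in CTL libraries, with overlap (−0.45 ± 0.17, adjusted p = 0.0362). It was not called when SAE replicate 1 (0.115), SAE replicate 3 (0.151), CTL replicate 2 (0.11) or CTL replicate 3 (0.124) was left out, nor with DESeq2's Wald test (0.0979) or among genes with 1 transcript (0.0639). Endothelial markers went mostly the other way from Gpr182 and Gpr4, with 5 higher and 1 lower of 8 tested. Their summed level was 505 to 533 CPM in SAE libraries and 367 to 396 CPM in CTL libraries. Pecam1 was at 0 in all 9 libraries.

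Gpr-named receptors known from neurons included both higher and lower calls. Gpr3, Gpr6 and Gpr12 encode related receptors that raise cyclic AMP without an added ligand. Gpr6 had 15, 11 and 27 counts in SAE libraries and 12, 5 and 6 in CTL libraries, with overlap (1.17 ± 0.43, adjusted p = 0.0277). Without SAE replicate 3 its log2 fold change was 0.75 (adjusted p = 0.236), and it was also lost without CTL replicate 2 (0.12) or CTL replicate 3 (0.0872) and with DESeq2's Wald test (0.101). Gpr3 had 70, 75 and 77 counts in SAE libraries, against 58, 55 and 43 in CTL libraries (0.49 ± 0.18, adjusted p = 0.0277). It was lost without SAE replicate 2 (0.0653), SAE replicate 3 (0.0571) or CTL replicate 3 (0.143), with DESeq2's Wald test (0.103) and with no filter (0.0524). Gpr12 was not called (0.22 ± 0.22). Gpr26, a brain orphan receptor gene, was higher, with 485, 552 and 586 counts in SAE libraries, against 307, 310 and 334 in CTL libraries (0.76 ± 0.08, adjusted p = 4.75e-08). Gpr61, another orphan, had 65, 85 and 73 counts in SAE libraries, against 40, 45 and 45 in CTL libraries (0.76 ± 0.19, adjusted p = 0.00144). For Gpr61 the highest of its 2 transcripts held 63.2% of the counts, and that transcript alone gave 0.28 (adjusted p = 0.326).

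Gpr158 encodes a receptor that anchors RGS7 at synapses and has been described as a metabotropic glycine receptor. It had 3134, 3150 and 3368 counts in SAE libraries, against 2792, 2731 and 2868 in CTL libraries (0.19 ± 0.04, adjusted p = 0.000868). Gpr22, a neuronal orphan, fell by 0.43 ± 0.04 (adjusted p = 7.28e-09), with 2064, 2051 and 2170 counts in SAE libraries, against 2717, 2858 and 2813 in CTL libraries. The groups of both genes lay apart although the changes were small. Gpr25 had 195, 183 and 188 counts in SAE libraries, against 246, 244 and 262 in CTL libraries, and fell by 0.43 ± 0.10 (adjusted p = 0.00129). Gpr151, known from the habenula, had 14, 12 and 24 counts in SAE libraries, against 31, 31 and 37 in CTL libraries, just short of 2-fold lower (−0.997 ± 0.287, adjusted p = 0.00573). Gpr139, another habenular receptor gene, had 35, 26 and 31 counts in SAE libraries, against 19, 20 and 21 in CTL libraries, and was not called (0.60 ± 0.26, adjusted p = 0.0639). Of the 10 thalamic markers 2 could be tested, with 1 higher and 0 lower. Gpr27, an orphan receptor gene of brain, was not called (0.09 ± 0.06), nor were Gpr21, Gpr45, Gpr75, Gpr101, Gpr135, Gpr155, Gpr157, Gpr165 and Gpr180, whose log2 fold changes lay between −0.43 and 0.78.

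Grouped by G protein, receptors of each kind changed in part. Receptors with Gpr names were left out of this split, as were those that use several G proteins. Of 12 Gi-coupled members 4 were higher (S1pr1, Oprd1, Sstr3, Sstr4) and 2 lower (Adra2a, Adra2c). Of 6 Gs-coupled members 2 were higher (Crhr1, Adrb1) and 0 lower, and of 4 Gq-coupled members 2 were higher (Adra1d, Htr2a) and 0 lower. The median log2 fold changes were 0.06, 0.14 and 0.14, and 47.6% of all tested genes were called.

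Genes acting downstream of the receptors were counted from lists fixed for this purpose. Of 27 G protein subunit genes 18 were tested, with 7 higher and 5 lower (median 0.09). Gnao1, the Go α subunit gene of neurons, had 8471, 8282 and 8830 counts in SAE libraries, against 6061, 6144 and 6466 in CTL libraries (0.44 ± 0.04, adjusted p = 2.22e-10). Gna12 rose by 0.65 ± 0.06, and Gnb2 by 0.75 ± 0.11. RGS proteins switch G proteins off. Of 10 tested genes with Rgs symbols 5 were higher and 2 lower (median 0.44). Rgs2 was raised by 0.56 ± 0.08 and Rgs9 lowered, at −0.80 ± 0.09. The 5 higher include Rgs7bp (0.37 ± 0.06), which encodes a binding protein of RGS7 and not an RGS protein. Rgs5, raised by 0.82 ± 0.05, is also a pericyte marker. Of 5 tested pericyte markers the 2 called higher were Rgs5 itself and Cspg4, which precursors of oligodendrocytes express too. Of 11 GRK and arrestin genes 3 were tested, with Grk4, a receptor kinase gene, at 1.59 ± 0.28 and Arrdc4, an arrestin-domain gene, at −0.55 ± 0.13.

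Among adenylyl cyclases and phosphodiesterases, which make and break cyclic AMP and cyclic GMP, 3 of 12 tested genes were higher and 1 lower. Pde4a had 20, 22 and 21 counts in SAE libraries, against 4, 3 and 6 in CTL libraries (2.23 ± 0.41, adjusted p = 7.5e-05). Pde4b, of the same subfamily, went the other way, with 47, 61 and 60 counts in SAE libraries, against 100, 117 and 94 in CTL libraries (−0.90 ± 0.17, adjusted p = 8.85e-05). Pde8a rose by 0.90 ± 0.09. Of 7 tested genes of phospholipase C signalling and second-messenger readers 1 was higher, Prkca (0.23 ± 0.04), and 0 lower.

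**Figure D5:**
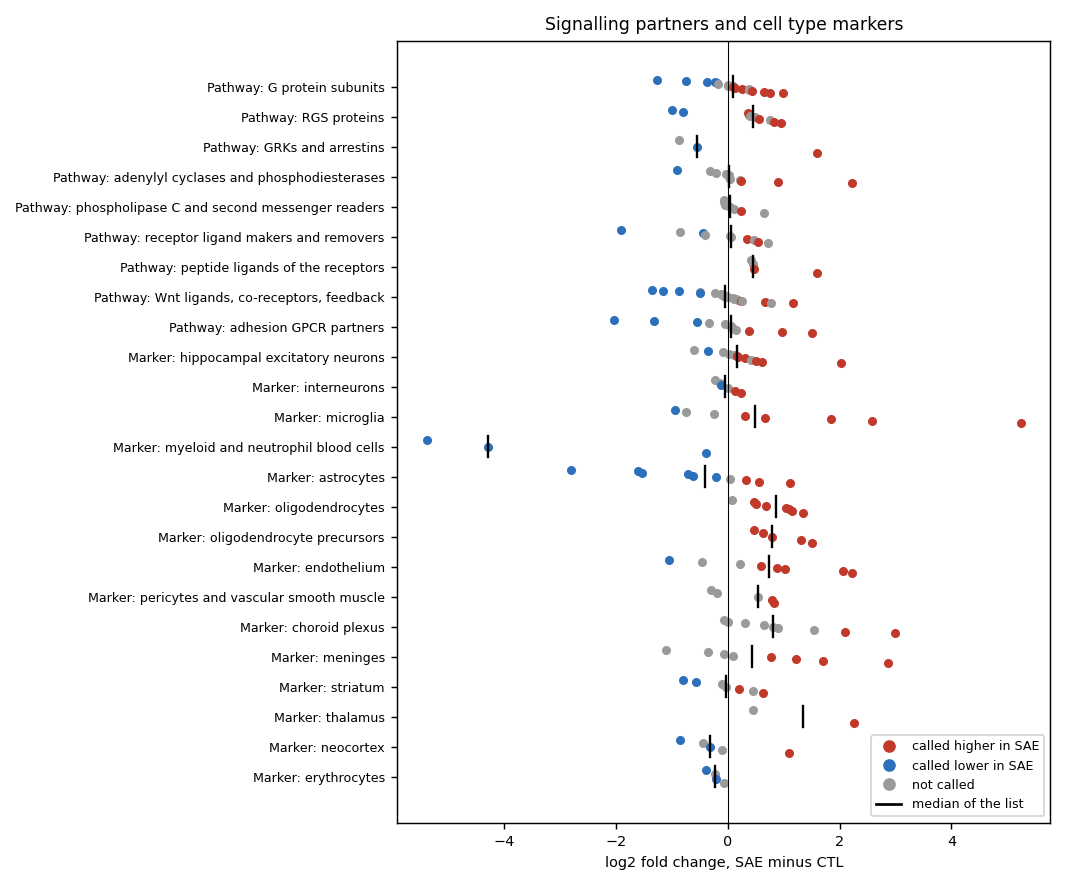
log2 fold change, SAE minus CTL, of the tested genes of 9 signalling lists and of 15 cell type and tissue lists (points, coloured by call), with the median of each list as a bar. The 5 tested precursor markers lie right of 0, and the 3 tested myeloid and neutrophil markers lie left of it.

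The tissue label was checked with markers. Hippocampal excitatory neuron markers had 6 higher and 1 lower of 12 tested, and their summed level was 12500 to 12800 CPM in SAE libraries and 10900 to 11400 CPM in CTL libraries. Camk2a and Spink8 were at 0 in all 9 libraries. Interneuron markers had 2 higher and 1 lower of 6. Choroid plexus markers, from tissue that borders the hippocampus, had 2 higher and 0 lower of 9 and spread most among SAE libraries (944 to 1880 CPM, against 763 to 1190 CPM in CTL libraries). Meningeal markers had 4 higher and 0 lower of 8, striatal 2 and 2 of 7, neocortical 1 and 2 of 5, and red blood cell markers 0 and 2 of 4. Summed neocortical markers were at 599 to 628 CPM in SAE libraries and 798 to 808 CPM in CTL libraries. Striatal markers were at 419 to 448 and 458 to 487 CPM, and red blood cell markers at 452 to 556 and 574 to 599 CPM. Thalamic markers were higher in SAE libraries, at 15.8 to 18.3 CPM, against 7.01 to 11.5 CPM in CTL libraries. Meningeal sums overlapped. The part of dissection in the receptor results was not tested.

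The second comparison set the CCLF libraries against those labelled SAE, by the labels CLP with the extract against CLP alone. It called 8.34% of 7986 tested genes and 6 of the 74 members, 5 higher (5.43% of all tested genes were) and 1 lower (2.91%). At least 2-fold higher were 2 members, Gpr65 and Gpr18 (2.63% of all tested genes), and 0 were at least 2-fold lower (0.776%, and 3.41% in both directions). It shares the SAE libraries with the first comparison. Gpr65 had 43, 39 and 34 counts in CCLF libraries, against 3, 4 and 4 in SAE libraries (3.37 ± 0.24, adjusted p = 0.000364). Gpr18 had 19, 23 and 20 counts in CCLF libraries, against 0, 0 and 2 in SAE libraries (adjusted p = 0.00302). Gpr22 rose by 0.34 ± 0.03 (adjusted p = 0.00124). These 3 calls held in every alternative that tested them. S1pr3, with 217, 243 and 371 counts in CCLF libraries and 141, 153 and 152 in SAE libraries, rose by 0.91 ± 0.19. Adra2a rose by 0.34 ± 0.06, and Sstr4 fell by 0.53 ± 0.09. The calls of S1pr3, Adra2a and Sstr4 were lost when any one SAE library was left out (adjusted p up to 0.168, 0.0653 and 0.0793 over their alternatives). That of S1pr3 was also lost with no filter on low counts, where all libraries were kept. Crhr1 had 9, 19 and 26 counts in CCLF libraries and was not called against SAE (−0.86, adjusted p = 0.122). The mean CCLF level lay between the SAE and CTL means in 34 of the 35 members called in the first comparison, and in 96.8% of all 3912 genes called there. The spread among CCLF libraries enters every p-value of this comparison. It was small in many members, as given above, but not in all. S1pr3 had an SD of 17.8 CPM in CCLF libraries and 1.48 CPM in SAE libraries. The common dispersion (spread beyond counting error) of this fit was 0.00779, against 0.00443 in the first comparison.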

How the data were processed

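RNA from mouse hippocampus was depleted of ribosomal RNA and sequenced, per the labels' protocols. The deposited file holds whole-number counts per RefSeq transcript for the 9 libraries, with no normalization by the authors. Tools named are fastp and Salmon, per the submitters' processing notes. Their roles and versions, the transcript index, the genome build and any rounding are not stated there. All 120312 transcripts were matched to symbols of the RefSeq table of GRCm38.p6 and summed to 38911 genes.

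Low counts were removed with filterByExpr (edgeR) on the groups, libraries were scaled by TMM factors, and the 6 libraries compared were tested with edgeR's robust quasi-likelihood F test. P-values were adjusted over all tested genes (Benjamini-Hochberg), and a gene was called under 0.05. The SE is the size of the log2 fold change divided by the square root of F. CPM values use factors of all 9 libraries. No set test was run. The replicates are described as separate mice of each group. At these totals genes with few counts have wide errors. Whether replicate numbers pair the libraries was not settled, and the main tests treated the libraries as unpaired.

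Members, gene lists and tests were chosen with earlier results of these data known. The text names called members by fold (up to 14 from each end), the highest counted of each symbol stem, and those next to the count minimum, with up to 3 genes per list. Other members, Crh and Entpd2 were named to account for the class and were chosen after values were seen. Promoter motifs were likewise chosen after values were seen. Some members enter the counts and fits but are not reported here by name.

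Alternatives were DESeq2 size factors, DESeq2's Wald test, limma-voom, a fit of unfiltered genes, a minimum of 1 CPM in 3 libraries, all 9 libraries in 1 fit, a replicate block, only genes with 1 transcript, only the highest transcript, members with a mean count of at least 30, and each library left out. The fitting steps were also run on simulated counts with changes of at least 2-fold in either direction, which does not cover smaller changes. Tests ran in edgeR 4.0.16, DESeq2 1.42.0 and limma 3.58.1 under R 4.3.3. Tables and figures were made in Python 3.11.15 with pandas 2.3.3, scipy 1.17.1, numpy 2.4.6 and matplotlib 3.10.9.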

Additional observations from a re-analysis of the deposited data

How the results depend on the processing

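In SAE against CTL, 24 members were higher and 11 lower. Leaving out 1 library at a time gave 19 to 25 higher and 8 to 12 lower, and DESeq2's Wald test gave 20 higher and 7 lower. The other alternatives stayed within 1.5 times of both member counts. Of the 35 called members 23 were called under every alternative that tested them, and 12 of 39 members not called were called under at least 1. No member changed direction where it was called. Over all genes 1946 were higher and 1966 lower, against 1281 and 1284 where only genes with 1 RefSeq transcript were fitted, which tests fewer genes (4776). The replicate block gave 24 higher and 11 lower members and 1934 higher and 1958 lower genes. Deviations of same-numbered SAE and CTL libraries correlated at −0.0131 to 0.0264 over all tested genes. Such a correlation cannot exclude a pairing that touches only some genes. The common dispersion was 0.00275 with the block and 0.00443 without it. Whether the numbers pair the libraries is therefore not settled, and the block is given as a check only.

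In CCLF against SAE, 434 genes were higher and 232 lower. Leaving out 1 library gave 112 to 439 higher and 42 to 274 lower, with the lowest counts when an SAE library was left out. With no filter 657 were higher, and with all 9 libraries 355 were lower. Of members 5 were higher (3 to 5 with 1 library left out) and 1 lower (0 to 4 with 1 library left out). The lower count was 4 with all 9 libraries and 2 with the replicate block, with genes of 1 transcript and with the highest transcript only. The cause was not tested. Depth limits genes near 10 counts: Gpr6, with a mean of 12.7, had a log2 fold change of 1.17 ± 0.43.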
